A study of Mus musculus with 6 samples.

Results

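The transcripts described here are those of 9 genes of the amino acid branch of the integrated stress response, the set led by the transcription factor gene Atf4, together with Atf5, Ddit3, Trib3, Chac1, Asns, Psat1, Phgdh and Shmt2. They were taken by gene symbol from a deposited table of 55487 genes. The 9 symbols took 10 rows, because Ddit3 is listed under 2 gene identifiers. Poly-A RNA was sequenced from LSK cells (lineage-negative, Sca-1-positive, Kit-positive) of mouse bone marrow, the sorted fraction that holds stem and multipotent progenitor cells. Wild-type littermates gave 3 libraries and Mc5r-/- mice gave 3. The latter lack the melanocortin 5 receptor, a G-protein-coupled receptor for melanocortin peptides. The series states that the mice had been irradiated, so both genotypes carry that treatment, and no dose, time, age or sex is given in the sources used here. Nothing in the labels says how many mice a library came from or where the receptor gene was deleted. The SDs below therefore describe how far these libraries spread, and the p-values set the difference between genotypes against that spread. That spread may be technical.

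In the integrated stress response, kinases that sense amino acid shortage, unfolded protein, haem shortage or double-stranded RNA phosphorylate the translation factor eIF2. General translation then slows, while the mRNA of Atf4 is translated more, so that ATF4 protein is controlled to a large part at translation and cannot be read from its mRNA level. ATF4 pairs with other basic leucine zipper proteins on C/EBP-ATF response elements and drives genes of amino acid synthesis, uptake and tRNA charging, and under lasting stress genes of cell death such as Ddit3. In haematopoietic stem cells the pathway is known for its part in the response to nutrient and protein-folding stress.

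The response elements are shown first because they are the sequence that ATF4 and its partners are known to read. The core searched was TGATGNAA, on both strands, in RefSeq windows of 250 bases before to 50 bases after each annotated start (GRCm38.p6). All 9 genes had a window, 11 in all, since Atf5 and Psat1 have 2 starts each. A core was found in the windows of 3 genes, Chac1, Trib3 and Asns, and in 3.97% of 32851 promoter windows of the same length. In the stretches below, each read 5′ to 3′ on the strand of its gene, capitals mark the core or its reverse complement.
Chac1: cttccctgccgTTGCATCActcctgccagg
Trib3: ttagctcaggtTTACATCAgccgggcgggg
Asns: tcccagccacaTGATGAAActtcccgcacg
The Chac1 stretch lies on the plus strand at chr2:119351038-119351067, with the core at bases -193 to -186 from the start. The Asns stretch lies on the minus strand at chr6:7693214-7693243, with the core at bases -23 to -16 from the start, in the same orientation as the gene. The Trib3 stretch lies on the minus strand at chr2:152344028-152344057, and its core covers bases 15 to 22 from the start. These positions are counted from the RefSeq starts, which differ from those of the deposited gene loci. By its deposited locus Trib3 starts at base 152344032, so its core lies before that start. The deposited locus of Asns starts at base 7693254, so its core lies within that locus. The endoplasmic reticulum stress element, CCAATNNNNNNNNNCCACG on both strands, was in none of the 11 windows and in 0.119% of all windows. Absence of a match says only that these letters are not in these short windows.

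Gene counts summed to between 13983016 and 14953169 per library. The Mc5r count was 157 to 198 in the wild-type libraries and 0 to 1 in the Mc5r-null libraries. The LSK markers Kit (238 to 243 and 251 to 261 CPM, wild type and Mc5r-null) and Ly6a, the Sca-1 gene (47.1 to 65.8 and 60.0 to 77.6 CPM), were present in all 6 libraries, CPM being counts scaled to the total count of a library. Every library held counts of the Y-linked gene Eif2s3y (752 to 910). Xist, transcribed from the inactive X chromosome of females, had 1167 to 1281 counts in wild type and 0 to 2 in Mc5r-null. Wild-type libraries thus held transcripts of both sexes, and Mc5r-null libraries almost no Xist. The part of this in the differences described below was not tested, and it cannot be told apart from genotype. Markers of other cell types differed between the genotypes. Of all genes tested, 16.8% were called higher and 16.1% lower (edgeR adjusted p under 0.05). Of 12 plasma cell markers all 12 were called higher in Mc5r-null, with levels that summed to 11682 to 11757 CPM (wild type) and 37158 to 39589 CPM (Mc5r-null). Of 10 erythroid markers 9 were higher (36.9 to 38.9 and 184 to 186 CPM summed), of 10 myeloid progenitor markers 9 were lower (17958 to 19080 and 11546 to 11860 CPM), and of 7 basophil and mast cell markers 6 were lower (392 to 427 and 190 to 245 CPM). The 9 B cell markers had 2 higher and 4 lower (145 to 152 and 154 to 160 CPM). Of 4 macrophage markers tested 1 was higher and 2 were lower (39.3 to 41.7 and 33.0 to 37.6 CPM). For 3 T and NK cell markers tested, 2 were higher and 1 was lower (295 to 299 and 247 to 249 CPM). For 5 endothelial and stromal markers tested, 2 were higher (101 to 105 and 102 to 111 CPM), with Lepr at 0 in every library. Most of each of these 3 sums came from 1 gene, so they say little of the other markers. These were Vcam1 (means of 33.7 and 28.7 CPM), Nkg7 (267 and 205 CPM) and Pecam1 (96.4 and 93.7 CPM). Of 10 LSK and stem cell markers 8 were higher (1357 to 1389 and 1698 to 1722.5 CPM). The part of these markers in the differences described below was not tested, and fewer cells of a type cannot be told apart from less RNA per cell in bulk samples.

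The 9 genes did not move as a block between the genotypes. The glutathione-degrading enzyme gene Chac1 and the transcription factor gene Atf5 were higher in Mc5r-null LSK cells, 2.13-fold and 1.29-fold. Atf4 itself, Ddit3 and the serine synthesis gene Psat1 were lower, 1.38-fold, 1.35-fold and 1.45-fold. Asns, Trib3, Phgdh and Shmt2 did not pass the test. That makes 2 genes higher and 3 lower of the 9, all of which passed the filter on low counts (edgeR quasi-likelihood test, Benjamini-Hochberg adjusted p under 0.05 over all 15257 genes tested). Of all genes tested, 32.9% were called, 16.8% higher and 16.1% lower. The median log2 fold change was -0.07 over the 9 genes and -0.0047 over all genes tested, and the median absolute log2 fold change was 0.44 and 0.18. The CPM values of the 2 genotypes did not overlap for 7 of the 9 genes, against 49.8% of all genes tested, with 2 of the 9 higher (21% of all genes) and 5 lower (28.7%).

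**Figure D1:**
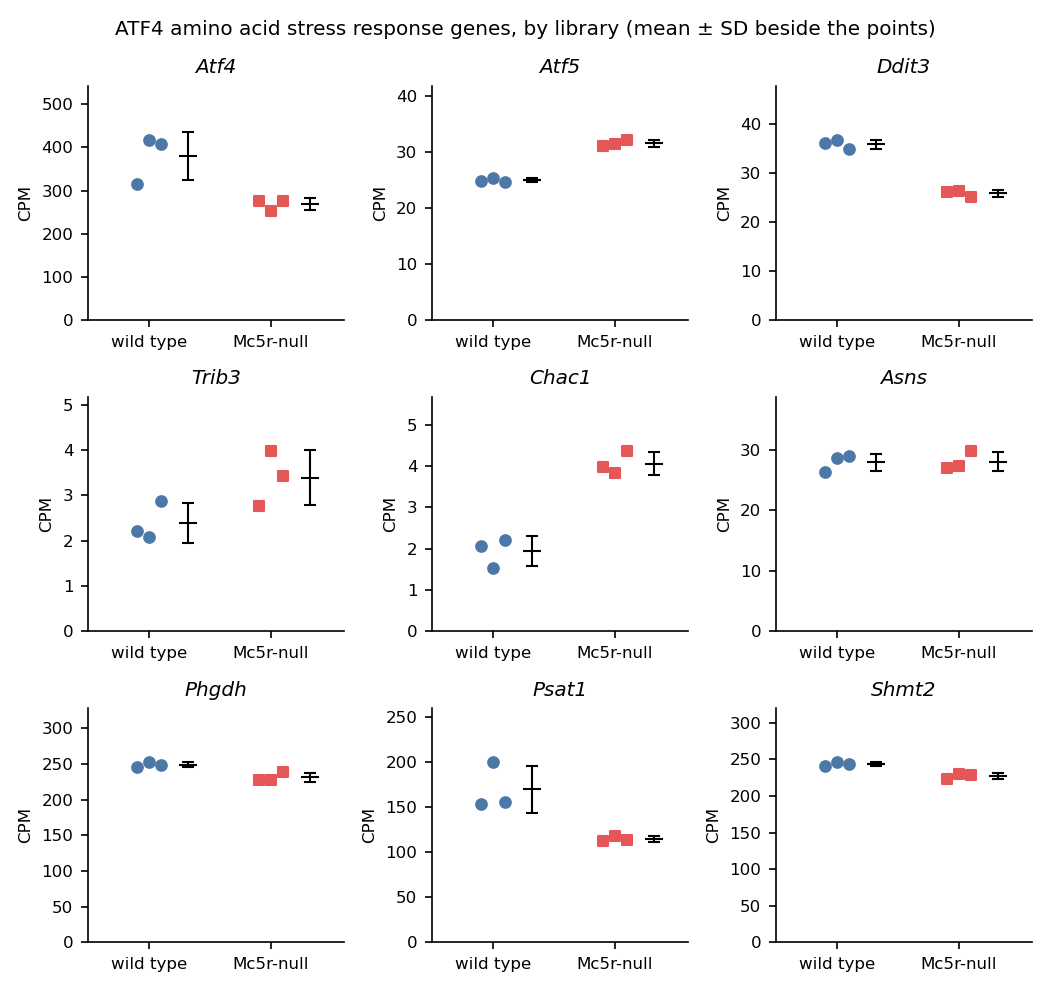
Level of each of the 9 genes in every library, in CPM, with wild-type libraries as circles and Mc5r-null libraries as squares, replicates 1 to 3 from left to right, and the mean ± SD (n = 3) beside them. The genotypes do not overlap for Atf4, Atf5, Ddit3, Chac1, Phgdh, Psat1 and Shmt2, and overlap for Trib3 and Asns.

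Levels per length were compared with the deposited FPKM values, a read level scaled by gene length and sequencing depth. In wild type the order was Atf4 (92.9 ± 13.7 FPKM), Phgdh (86.9 ± 1.18), Shmt2 (41.5 ± 0.501), Psat1 (24.4 ± 3.74), Ddit3 (15.6 ± 0.399), Asns (7.44 ± 0.380), Atf5 (7.03 ± 0.104), Chac1 (1.19 ± 0.217) and Trib3 (0.754 ± 0.137), as mean ± SD with n = 3. Of the neighbours, 2 pairs overlapped between libraries, Atf4 with Phgdh and Asns with Atf5, and the other neighbours did not. In Mc5r-null the same 2 pairs stood in the other order. Phgdh (80.7 ± 2.10 FPKM) was above Atf4 (65.6 ± 3.43 FPKM) and Atf5 (8.88 ± 0.155 FPKM) above Asns (7.46 ± 0.413 FPKM). Atf4 and the serine pathway genes Phgdh, Shmt2 and Psat1 were thus the abundant transcripts of the set. The stress effectors Chac1 and Trib3 were scarce in both genotypes.

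Atf4 (ENSMUSG00000042406, GRCm38 chr15:80255184-80257541, plus strand) encodes the central factor of the response. The wild-type libraries held 316, 416 and 407 CPM (replicates 1, 2 and 3) and the Mc5r-null libraries 277, 252 and 276 CPM. The genotypes did not overlap, but wild-type replicate 1 lay closer to the Mc5r-null libraries than to the other wild-type libraries. Means of 380 ± 55.8 CPM (wild type) and 268 ± 14.02 CPM (Mc5r-null, SD, n = 3 each) gave a log2 fold change of -0.47 ± 0.13 SE (edgeR adjusted p = 0.0483). This call sits at the threshold. Without wild-type replicate 1 the log2 fold change was -0.59 (edgeR adjusted p = 0.000113), and without any other library Atf4 was not called (log2 fold change between -0.49 and -0.40, edgeR adjusted p between 0.118 and 0.146). The call was also lost when immunoglobulin genes were left out (edgeR adjusted p = 0.0532) and with no filter on low counts (edgeR adjusted p = 0.0915).

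Atf5 (ENSMUSG00000038539, chr7:44812256-44816658, minus strand) encodes the closest relative of ATF4 and is likewise induced by translational control. Its values were 24.9, 25.5 and 24.8 CPM in wild type and 31.1, 31.5 and 32.2 CPM in Mc5r-null. The libraries of a genotype lay close together and the genotypes were well apart. The log2 fold change was 0.37 ± 0.05 SE (edgeR adjusted p = 0.00105). Atf5 overlaps Nup62 on the opposite strand over 571 bases and Il4i1 over 272 bases, exons included. Whether counting used strand is not stated, so reads of these genes may be shared. Nup62, a nuclear pore gene, had 44.5 ± 3.78 (wild type) and 45.3 ± 3.91 CPM (Mc5r-null). Il4i1 had 0.603 ± 0.307 and 0.902 ± 0.229 CPM, in the same order with n = 3 each, and neither was called.

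Ddit3 encodes CHOP, a leucine zipper protein of the same response that promotes cell death. The row counted here (ENSMUSG00000025408, chr10:127290774-127296288, plus strand) held 35.98, 36.6 and 34.8 CPM in wild type and 26.2, 26.3 and 25.0 CPM in Mc5r-null. All Mc5r-null libraries were below all wild-type libraries, with a spread within a genotype of 1.05-fold in each. The log2 fold change was -0.44 ± 0.05 SE (edgeR adjusted p = 0.000504). The other Ddit3 row (ENSMUSG00000116429, chr10:127290829-127293753), a short coding gene model of 105 exon bases inside the first, had 1 count in each of the 6 libraries and was not tested. On the opposite strand Ddit3 overlaps 68 bases of the methionyl-tRNA synthetase gene Mars1, which was at 113 ± 2.34 and 107 ± 1.87 CPM and not called, and 15 bases of Gm4189, with 7 to 11 counts.

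Trib3, a pseudokinase gene induced by ATF4 and CHOP that feeds back on ATF4, had few counts, 33, 31 and 43 in wild type and 39, 56 and 48 in Mc5r-null. As levels these were 2.21, 2.08 and 2.89 CPM and 2.77, 3.98 and 3.43 CPM. The highest wild-type library stood above the lowest Mc5r-null library. Trib3 (ENSMUSG00000032715, chr2:152337422-152344032, minus strand) had a log2 fold change of 0.54 ± 0.20 SE (95% interval 0.08 to 1.0, edgeR adjusted p = 0.0706). It passed when wild-type replicate 3 was left out (edgeR adjusted p = 0.0459) or Mc5r-null replicate 1 was (edgeR adjusted p = 0.0468).

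Chac1 encodes an enzyme that cleaves glutathione and is a target of ATF4 with partners such as CHOP. Its counts were 31, 23 and 33 in wild type and 56, 54 and 61 in Mc5r-null, or 2.07, 1.54 and 2.21 CPM against 3.98, 3.84 and 4.36 CPM. The lowest Mc5r-null library was above the highest wild-type library. Chac1 (ENSMUSG00000027313, chr2:119351229-119354381, plus strand) had the largest absolute log2 fold change of the 9 genes, 1.09 ± 0.17 SE (edgeR adjusted p = 0.00171). From the pooled counts the ratio of Mc5r-null to wild type, relative to all counts, was 2.09 (exact 95% interval 1.61 to 2.74, counting error only).

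**Figure D2:**
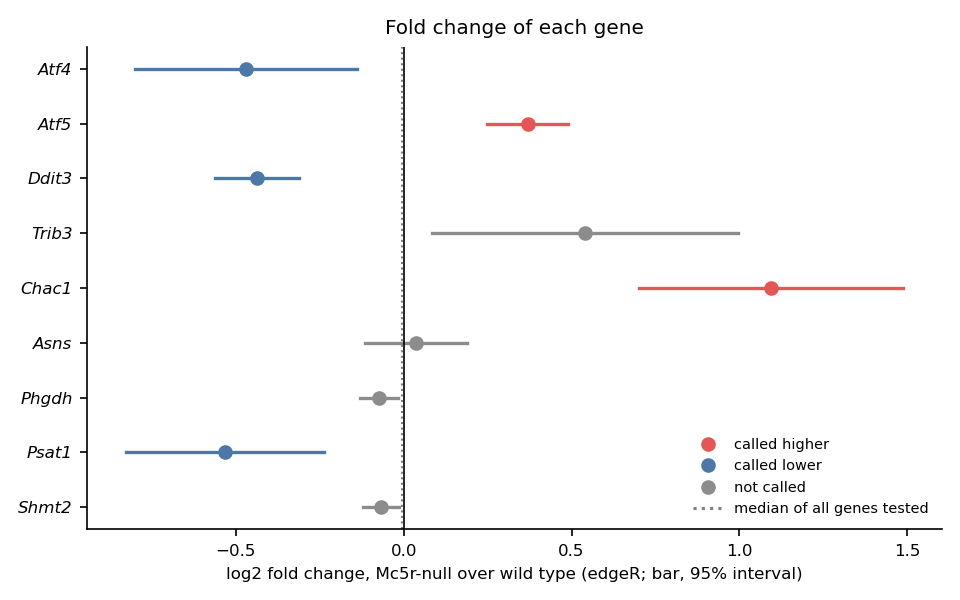
Fold change of each of the 9 genes between Mc5r-null and wild type on a log2 scale, as fitted by edgeR, with 95% intervals as bars and the median of all genes tested as a dotted line. Chac1 and Atf5 are called higher, Atf4, Ddit3 and Psat1 lower, and the intervals of Phgdh and Shmt2 lie close to 0.

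Among the enzymes, Asns (ENSMUSG00000029752, chr6:7675169-7693254, minus strand), the asparagine synthetase gene and a classical target of ATF4, had 26.3, 28.5 and 28.9 CPM in wild type and 26.9, 27.3 and 29.8 CPM in Mc5r-null. The 2 sets of values were interleaved. The log2 fold change was 0.04 ± 0.07 SE (95% interval -0.12 to 0.19, edgeR adjusted p = 0.715).

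The serine pathway begins with Phgdh, continues with Psat1, and passes serine to Shmt2, which makes glycine and one-carbon units in mitochondria. Psat1 (ENSMUSG00000024640, chr19:15904678-15947337, minus strand) held 154, 200.1 and 156 CPM in wild type and 112, 118 and 114 CPM in Mc5r-null. All Mc5r-null libraries were below all wild-type libraries, and wild-type replicate 2 stood above the others. The log2 fold change was -0.53 ± 0.12 SE (edgeR adjusted p = 0.0223). It was -0.40 without wild-type replicate 2 (edgeR adjusted p = 0.000229). Without any 1 of the Mc5r-null libraries Psat1 was not called (edgeR adjusted p between 0.0707 and 0.0858, log2 fold change between -0.56 and -0.52), nor with no filter on low counts (edgeR adjusted p = 0.0528).

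Phgdh (ENSMUSG00000053398, chr3:98313170-98339990, minus strand) had 246, 253 and 249 CPM in wild type and 228, 228 and 238 CPM in Mc5r-null. The values did not overlap, yet the distance was small, with a log2 fold change of -0.07 ± 0.02 SE (95% interval -0.13 to -0.02, edgeR adjusted p = 0.0527). Its pseudogene Phgdh-ps1 had 1 to 3 counts per library. Shmt2 (ENSMUSG00000025403, chr10:127517123-127522444, minus strand), which lies 220834 bases beyond the end of Ddit3, had 241, 246 and 244 CPM in wild type and 223, 230.2 and 228 CPM in Mc5r-null. Its log2 fold change was also -0.07 ± 0.02 SE (95% interval -0.12 to -0.01, edgeR adjusted p = 0.0552). Both genes passed when libraries were scaled by their totals alone (log2 fold change -0.11 and -0.10, edgeR adjusted p = 0.0138 and 0.0104) or by the upper quartile (edgeR adjusted p = 0.0424 and 0.0381), and Phgdh also without Mc5r-null replicate 3 (edgeR adjusted p = 0.0329).

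Ratios of FPKM between genes of the set, taken within a library and chosen after the values were seen, put these differences side by side. Atf5 per Atf4 was 0.0906, 0.0702 and 0.0698 in wild type and 0.129, 0.144 and 0.134 in Mc5r-null. Chac1 per Atf4 was 0.0131 ± 0.00361 in wild type and 0.0378 ± 0.00179 in Mc5r-null, and Asns per Atf4 0.0809 ± 0.00862 and 0.114 ± 0.00688 (SD, n = 3 each). For these 3 ratios all Mc5r-null libraries were above all wild-type libraries. Ddit3 per Atf4 was 0.170 ± 0.0281 and 0.172 ± 0.0124 and overlapped. In the serine pathway, Psat1 per Phgdh was 0.281 ± 0.0394 in wild type and 0.205 ± 0.00819 in Mc5r-null, without overlap, while Shmt2 per Phgdh was 0.478 ± 0.00129 and 0.480 ± 0.0127. These ratios were not tested.

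The genes of the set differed in how much replicate libraries of a genotype scattered. Relative to counting noise, where a value of 1 is the scatter that counting alone gives on average, the variance within genotypes was 66.4 for Atf4 and 30.3 for Psat1, higher than for 98.4% and 96.7% of the genes tested. It was 0.109 for Atf5 and 0.308 for Ddit3, higher than for 1.26% and 7.83% of genes, and between 0.612 and 1.44 for the other 5 genes. The median over all genes tested was 1.26. The library that stood apart differed between the 2 genes, low in wild-type replicate 1 for Atf4 and high in wild-type replicate 2 for Psat1.

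The pattern over libraries most like that of Atf4 was sought by Pearson's r of log2 CPM over the 6 libraries, among 9984 other genes with a mean of at least 10 CPM. The 5 leading genes were Bag5, a co-chaperone gene, Zdhhc9, a palmitoyltransferase gene, Mcf2l, a guanine nucleotide exchange factor gene, and Eif2b5 and Eif2s3x, which encode subunits of eIF2B and eIF2. As a description of 6 libraries, these r values lie between 0.989 and 0.996, and Spearman's rho between 0.886 and 0.943. In all 5, as in Atf4, wild-type replicate 1 was the lowest wild-type library and Mc5r-null replicate 2 the lowest Mc5r-null library. The 5 were chosen for their likeness to Atf4, so this shared order is no separate result. Of them Mcf2l fell (1.43-fold, edgeR adjusted p = 0.0116), as did Eif2s3x, described next, and the others were not called.

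The genes that act before ATF4 showed differences of at most 1.31-fold. The list of 16 genes held eIF2 kinases and their regulators, eIF2, its exchange factor eIF2B and its phosphatases. In it 4 were lower and 1 was higher, with a median log2 fold change of -0.12. For this list and those below, the share over all genes tested was 16.1% lower and 16.8% higher. Ppp1r15b, the constitutive regulatory subunit of the eIF2 phosphatase, fell 1.31-fold from 196 ± 1.61 to 146 ± 5.10 CPM (SD, n = 3 each), and Eif2s1, the alpha subunit of eIF2 that the kinases phosphorylate, fell 1.253-fold from 157 ± 4.43 to 123 ± 1.99 CPM. Impact, an inhibitor of the amino acid sensing kinase GCN2, rose 1.24-fold from 32.5 ± 1.65 to 39.4 ± 1.84 CPM. The X-linked Eif2s3x fell 1.11-fold from 98.8 ± 3.87 to 87.0 ± 1.16 CPM, in libraries that also differed in Xist as given above, and its call was lost without wild-type replicate 2 or 3 (edgeR adjusted p of at most 0.0526) and with DESeq2 (adjusted p = 0.134). Of the 4 eIF2 kinases, only the haem-regulated Eif2ak1 passed in this fit, 1.10-fold lower, and it was named after its value was seen.

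**Figure D3:**
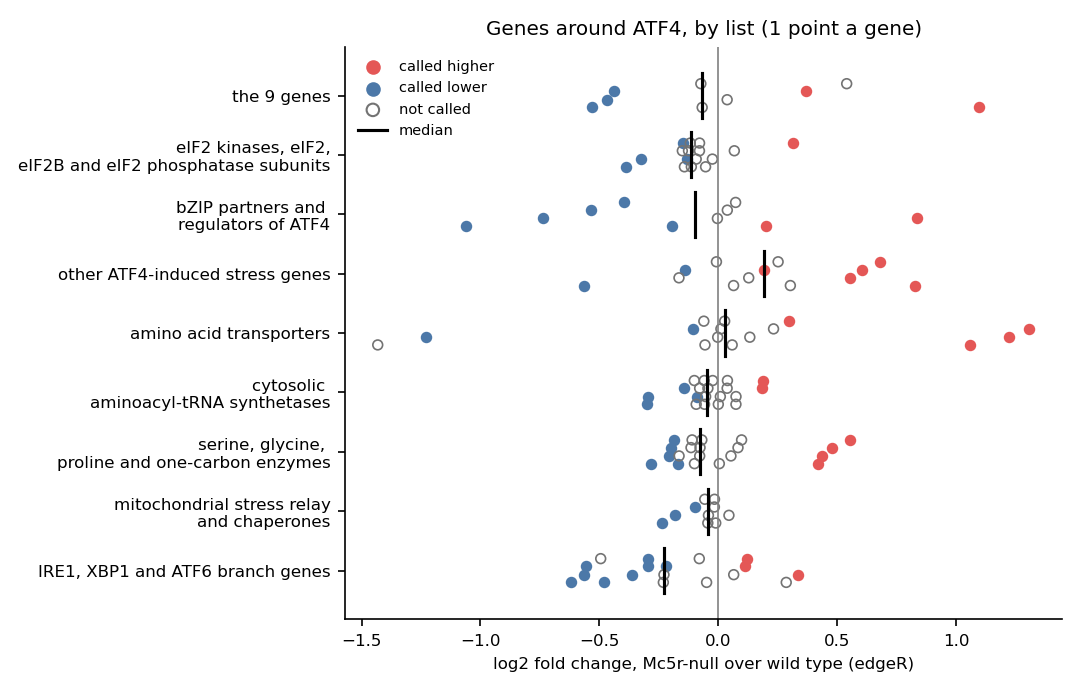
Log2 fold change between Mc5r-null and wild type for the 9 genes and for each gene tested in 8 lists of the pathway, with called genes filled, other genes open, and the median of each list as a vertical bar. The list medians lie between -0.23 (IRE1, XBP1 and ATF6 branch) and 0.19 (other ATF4-induced stress genes), and all lists but that of mitochondrial chaperones hold genes called in both directions.

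Among 10 genes for leucine zipper partners of ATF4 or for other regulators of it, 5 were lower and 2 higher (median log2 fold change -0.10). Atf3, a stress-induced factor downstream of ATF4, had 353, 329 and 327 CPM in wild type and 162, 152 and 158 CPM in Mc5r-null. It fell 2.09-fold (edgeR adjusted p = 1.63e-07), with every Mc5r-null library under every wild-type library. The C/EBP family genes Cebpd (1.67-fold, 63.1 ± 1.27 to 36.9 ± 1.76 CPM) and Cebpa (1.45-fold, 174 ± 3.32 to 117 ± 15.5 CPM) fell. Nfe2l2, which encodes the antioxidant regulator NRF2, fell 1.32-fold from 75.3 ± 2.06 to 55.8 ± 3.16 CPM. Both members called higher, Cebpg and Nupr1, named after their values were seen, were no longer called without wild-type replicate 1, where the list had 0 higher.

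Of 16 other stress genes that ATF4 is known to induce, 13 were tested, 5 were higher and 2 lower (median log2 fold change 0.19). Vldlr, the very low density lipoprotein receptor gene, rose 1.77-fold from 48.4 ± 2.30 to 83.7 ± 2.40 CPM, and Ndrg1, a stress-responsive gene, 1.52-fold from 102 ± 2.50 to 152 ± 3.13 CPM. Gdf15, which encodes a stress-induced cytokine, rose 1.47-fold from 25.8 ± 1.84 to 37.0 ± 2.34 CPM. Ero1l, the endoplasmic reticulum oxidase gene, fell 1.48-fold from 130 ± 4.22 to 85.9 ± 2.153 CPM. Stc2, Fgf21 and Cth had too few counts to be tested.

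Amino acid transporters had 4 of 15 genes higher and 2 lower (median log2 fold change 0.03). The glycine transporter gene Slc6a9 rose 2.33-fold from 1.99 ± 0.193 to 4.53 ± 0.149 CPM, and the neutral amino acid transporter gene Slc1a4 rose 2.08-fold from 2.08 ± 0.481 to 4.23 ± 0.363 CPM. Slc3a2, the shared heavy chain of several exchangers, rose 1.23-fold from 213 ± 8.95 to 255 ± 7.11 CPM. The cystine importer gene Slc7a11 fell 2.35-fold from 2.64 ± 0.778 to 1.09 ± 0.215 CPM.

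For tRNA charging, 2 of 20 cytosolic aminoacyl-tRNA synthetase genes were higher and 4 lower (median log2 fold change -0.05). Dars fell 1.23-fold from 208 ± 3.69 to 165 ± 1.56 CPM and Iars 1.23-fold from 123 ± 7.51 to 98.0 ± 3.09 CPM. Vars rose 1.14-fold from 461 ± 2.51 to 513 ± 7.72 CPM and Sars 1.14-fold from 108 ± 1.89 to 120 ± 2.81 CPM. These charge aspartate, isoleucine, valine and serine. With library totals as the only scaling, 8 of these genes were lower.

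The wider serine, glycine, proline and one-carbon list had 4 genes higher and 5 lower of 20 tested (median log2 fold change -0.08), and Gldc, of the glycine cleavage system, had no count in any library. Glul, the glutamine synthetase gene, rose 1.34-fold from 343 ± 7.63 to 449 ± 7.57 CPM. Pycr1, of proline synthesis, rose 1.47-fold from 9.71 ± 0.472 to 13.9 ± 0.484 CPM, and Aldh1l1, a formyltetrahydrofolate dehydrogenase gene, 1.35-fold from 20.7 ± 0.730 to 27.4 ± 0.946 CPM. Dld, the shared dihydrolipoamide dehydrogenase, fell 1.22-fold from 151 ± 4.93 to 121 ± 3.09 CPM. With library totals as the only scaling, 8 genes of this list were lower.

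Of 10 genes of the mitochondrial stress relay and its chaperones, 3 were lower and 0 higher (median log2 fold change -0.04). Hspe1 (1.18-fold, 101 ± 3.32 to 83.6 ± 2.42 CPM) and Hspd1 (1.07-fold, 517 ± 5.43 to 472 ± 5.59 CPM), the mitochondrial chaperonin pair, and the protease gene Yme1l1 (1.14-fold, 123 ± 1.81 to 106 ± 1.28 CPM) fell. The call of Hspd1 was lost with DESeq2 (adjusted p = 0.140). Hspa9, the mitochondrial Hsp70 gene, had 582 ± 7.91 and 586 ± 11.1 CPM in wild type and Mc5r-null and was not called.

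The other arms of the unfolded protein response had 8 of 18 genes lower and 3 higher, against 16.1% and 16.8% of all genes tested. Their median log2 fold change was -0.23, against -0.0047 over all genes tested. Calr, a calcium-binding chaperone gene that also stands in the list of myeloid progenitor markers, fell 1.48-fold from 2800 ± 39.3 to 1848 ± 22.5 CPM (SD, n = 3 each). The endoplasmic reticulum genes Sdf2l1 (1.47-fold, 249.9 ± 1.002 to 166 ± 0.819 CPM), Hyou1 (1.40-fold, 385 ± 7.18 to 269 ± 5.05 CPM) and Dnajb9 (1.53-fold, 75.5 ± 2.34 to 48.1 ± 1.91 CPM) fell. Xbp1, which also stands in the list of plasma cell markers and was named after its value was seen, rose 1.26-fold from 120 ± 2.98 to 148 ± 7.17 CPM. The genes of the 8 lists that are said to have risen or fallen were called at an edgeR adjusted p of at most 0.0231.

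**Figure D4:**
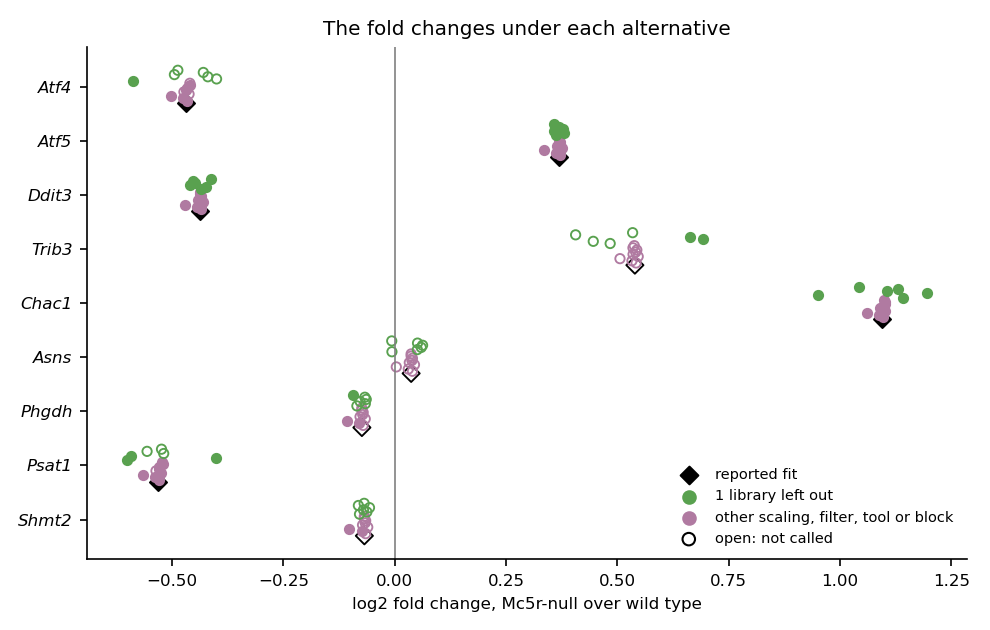
Log2 fold change of each of the 9 genes in the reported fit (diamond), with 1 library left out (green) and under other scalings, filters, tools or the replicate block (purple), with filled symbols for called values and open symbols for values not called. Atf5, Ddit3 and Chac1 are called in all 15 alternatives, Psat1 in 11 and Atf4 in 7, while Asns is called in 0 and lies on both sides of 0.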

How the data were processed

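The authors deposited 1 table with whole-number counts per gene and FPKM values per library, per the file headers. The submitters' processing notes name CASAVA 1.8, HISAT2, StringTie, edgeR and GRCm38, without roles, so the counter and its use of strand are not given in the sources used here. Gene loci are those deposited, which matched GENCODE M21 for all 10 rows.

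Counts were tested in R 4.3.3 with edgeR 4.0.16: filterByExpr (minimum count 10, minimum total 15), TMM scaling, the robust quasi-likelihood test of genotype over all 6 libraries, and Benjamini-Hochberg adjustment over 15257 genes. SEs were derived from the F statistics. The fold changes are fitted ones, and CPM values use total counts. The fit was tested on simulated data. It called 59 of 100 genes set to change 1.5-fold, 85 of 100 set to change 2-fold and 0.141% of unchanged genes. No other genes were changed in the simulation, whereas 32.9% of genes were called in the data. Its noise followed the fitted dispersions, so scatter below counting noise was not simulated. These shares are therefore not the power of the reported fit.

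Alternatives were RLE, upper-quartile and total scaling, no immunoglobulin genes, other filters, DESeq2 1.42.0, limma-voom 3.58.1, a replicate block and leaving out each library. The 9 genes and the lists were chosen with earlier results of these data known. Named genes were the 9, the 4 with the smallest p in each pathway list and the 5 most like Atf4. Of the list symbols, Gcn1l1 was matched by identifier and Ahsp was not matched. No library was left out of the reported fit.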

Additional observations from a re-analysis of the deposited data

How the results depend on the processing

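Atf5, Ddit3 and Chac1 kept their direction and call in all 15 alternatives. Atf4 kept its direction in all 15 and its call in 7. Beside the settings named above, it was lost with the replicate block (log2 fold change -0.46, edgeR adjusted p = 0.125). Fewer genes were called lower among the 9 with no filter (1), and 5 with upper-quartile or total scaling. Leaving out 1 library at a time gave 1 to 3 lower and 2 to 3 higher, and over all genes 1986 to 2094 lower and 2080 to 2124 higher. DESeq2 called 1655 genes higher and 1446 lower over all genes, where edgeR called 2567 and 2456. In the lists DESeq2 called 2 eIF2 genes lower, 0 leucine zipper partners or regulators higher, 1 other stress gene lower and 1 transporter lower. It also called 2 synthetases lower, 2 serine and one-carbon genes lower and 1 gene of the IRE1, XBP1 and ATF6 branch higher. Total scaling called 2210 genes higher and 3018 lower over all genes, 42.3% of calls being higher against 51.1% in the reported fit. It called 8 synthetases and 8 serine and one-carbon genes lower, and shifted the median log2 fold change of all genes to -0.04. Leaving out 1 library gave 2 to 5 eIF2 genes lower, 0 to 2 leucine zipper partners or regulators higher and 1 to 2 transporters lower. The causes were not tested. Deviations of libraries with equal replicate numbers did not correlate across genes (0.0024, -0.0405 and -0.0241). With 3 libraries a genotype and a median scatter near counting noise, this cannot exclude a shared day or litter. The replicate block called 2254 genes higher and 2148 lower, and 2 of the 9 genes higher and 2 lower. Trib3 and Chac1 had the fewest counts of the 9 genes, 23 to 61 in a library.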
